A study of Macaca mulatta with 17 samples.

Results

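A set of 10 WNT ligand genes was followed across fetal rhesus macaque uteri: WNT2, WNT2B, WNT3, WNT4, WNT5A, WNT5B, WNT6, WNT7A, WNT7B and WNT11. All 10 were found by their symbols in the probe descriptions of the array, each by 1 probe, among 20217 non-control probes and 19 WNT genes on the array in all. The uteri came from female fetuses of dams that ate a daily fruit treat carrying either 400 µg per kg of deuterated bisphenol A (BPA) or the ethanol vehicle. Each uterus was cut lengthwise from fundus to cervix, and RNA from 1 side was hybridised alone to a 1-colour array, so that 1 array stands for 1 fetus and the tissue holds all layers of the organ. The GD100 fetuses were treated from gestational day 50 to 100 and delivered by caesarean section (5 control, 5 BPA-exposed). The GD165 fetuses were treated from day 100 until vaginal delivery at day 165 to 168 (4 control, 3 BPA-exposed, with stillborn fetuses left out). Mode of delivery and treatment window differ between the ages in every animal, and neither can be told apart from age.

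WNT proteins are secreted, lipid-modified ligands that bind Frizzled receptors. Some act mainly through LRP5 or LRP6 and stabilise beta-catenin, whereas others, such as WNT5A and WNT11, are best known for beta-catenin-independent signals that shape cell polarity and movement. In the mouse female tract WNT4 is needed to form the Müllerian duct and, after birth, the uterine glands, WNT5A is a mesenchymal ligand needed for posterior outgrowth and gland formation, and WNT7A is an epithelial ligand that patterns oviduct and uterus.

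The arrays were alike in quality. Between 83.8% and 89.0% of spots were well above background on each, and the correlation of log2 levels between any pair of arrays was 0.974 to 0.995. Every one of the 10 WNT probes was well above background on all 17 arrays and none was saturated, so no level given here is only a bound. A probe met this criterion on an array if at least 1 of its spots did. The WNT7B probe was the dimmest of the 10, with a processed signal of 31.4 to 86.8, so its differences are the most open to background. Levels are log2 scanner signal after each array was scaled to its own 75th percentile. A difference of 1 is a doubling, and levels of different genes are not set against each other, because each depends on its own probe. Of the markers fixed for the uterus and Müllerian tract, 6 of 6 were on the array and 5 were well above background on every array.

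**Figure D1:**
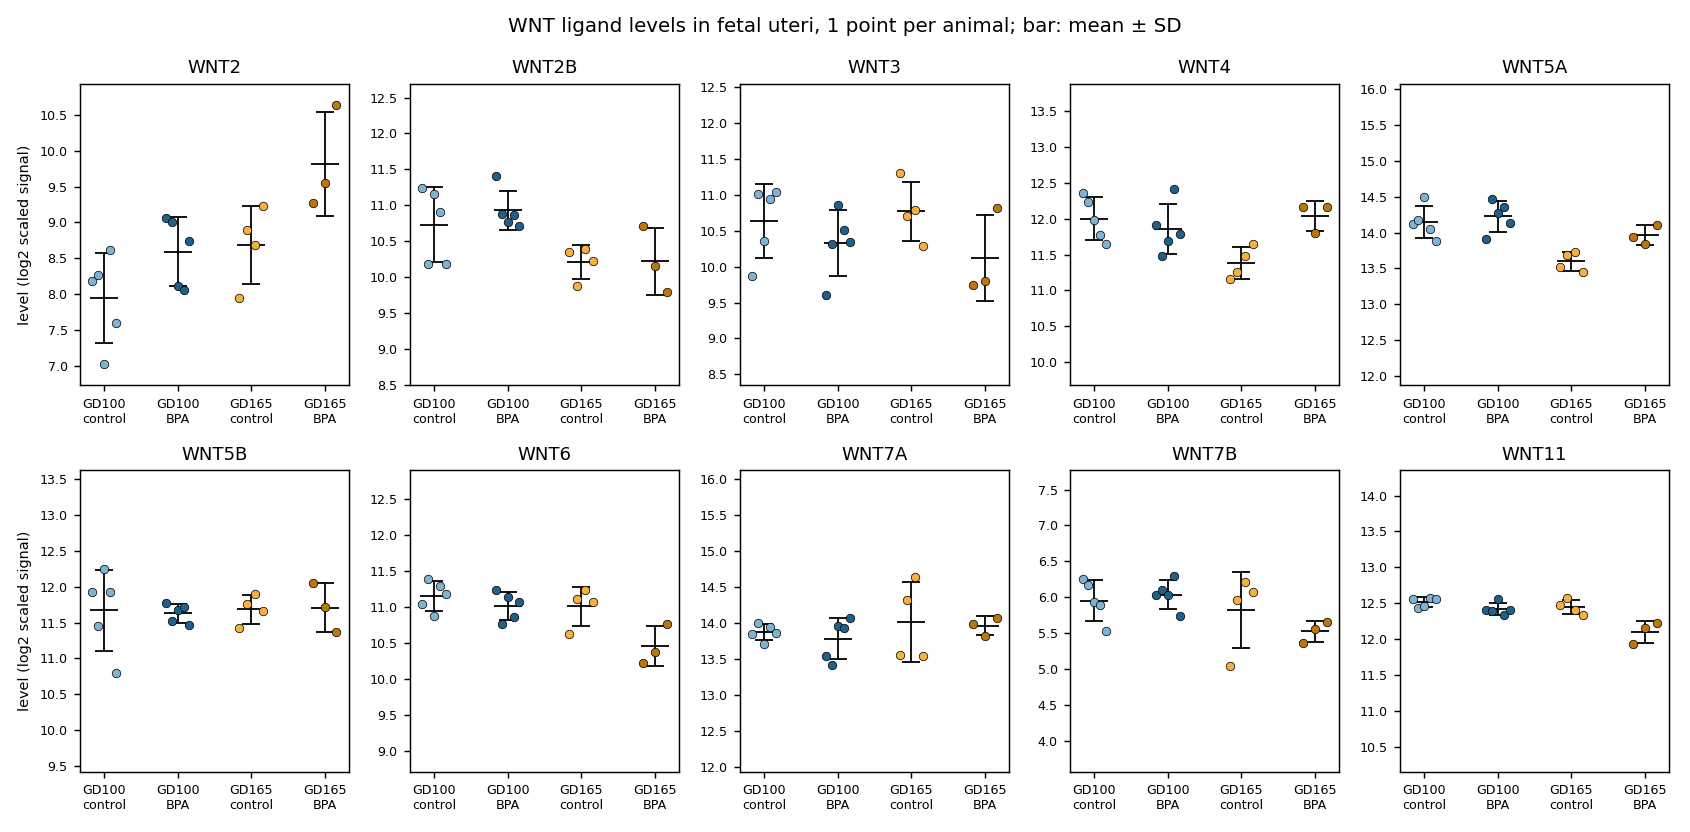
Level of each WNT ligand (vertical axis, log2 scaled signal; every panel spans the same number of log2 units) in the 4 groups, with 1 point per fetus and bars for the mean ± SD. The WNT4 and WNT5A panels show GD165 controls below GD165 BPA-exposed uteri without overlap (WNT4 11.16 to 11.65 against 11.80 to 12.17), and the WNT11 panel the reverse.

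What each measurement stands on is a 60-base probe. The first 30 bases are shown, 5′ to 3′, for the probes of 5 ligands. These are the ligands with an unadjusted p under 0.05 in limma between BPA-exposed and control uteri at GD165. The values below came from hybridisation to the whole 60-base probes.
WNT2: ttctcacttagaacctgaaggggattatga
WNT4: ccactcagttgttatctgtgtccatttttc
WNT5A: aaaggaatggaggaaaattgcatcttagac
WNT6: caactcccatgcctcaggaaatggtgaggc
WNT11: agctttctaagcagctgtacgaAATAAAtg
The capitals in the WNT11 probe mark AATAAA, 1 of the 2 hexamers searched (AATAAA and ATTAAA, on the strand printed), which are the usual polyadenylation signals. Of the 10 WNT probes, 2 held either hexamer (WNT5B and WNT11), against 16.8% of all probes. The longest run of bases shared by any 2 of the 10 probes was 9, over 45 pairs, so no pair of ligands was read by near-identical probes. The files place 8 of the probes on human chromosomes, with no build named: WNT4 at chr1:22191520-22191579 on the minus strand, WNT5A at chr3:55474859-55474918 on the minus strand and WNT11 at chr11:75575085-75575144 on the minus strand. WNT2 and WNT6 carry no position in the files. Whether a probe lies in coding sequence or a UTR was not analysed here.

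The first question was which ligands differed between mid and late gestation in unexposed fetuses. WNT5A was the 1 ligand of 10 to pass an adjusted p of 0.01. It was lower at GD165 by a log2 difference of -0.55 (SE 0.13), or 1.46-fold, with a limma adjusted p of 0.00697. The share of all probes called in this comparison was 11.5% at an adjusted p under 0.01, with 5.2% called lower. The count of 1 in 10 was thus near the share of all probes. WNT4 was 1.53-fold lower without passing (log2 difference -0.62, SE 0.19, limma adjusted p = 0.0278, below 0.05 as for 21.2% of all probes), and the remaining 8 ligands had adjusted p-values of 0.159 to 0.974. WNT4 and WNT5A were the 2 ligands with an unadjusted p under 0.05, against 33.1% of all probes.

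WNT5A in the GD100 controls measured 14.13, 14.18, 14.50, 14.05 and 13.89. In the GD165 controls it measured 13.52, 13.69, 13.73 and 13.45. All 4 late controls lay below all 5 early ones, and WNT5A was the 1 ligand of 10 whose groups did not overlap, against 19.4% of all probes (9.9% with GD165 lower). Over the 126 regroupings of these 9 animals a two-sided exact permutation test gave p = 0.0159. The call rested on the full set of arrays: when each of the 17 arrays was left out in turn, it held in 9 fits and was lost in 8, with limma adjusted p-values of 0.0045 to 0.0277. The arrays whose removal ended it were GD100 control 1 to 4, GD165 control 1, 3 and 6, and GD100 BPA 3, and in none of the 17 fits did the difference go outside -0.62 to -0.46. On the 2 slides that held 1 control of each age, the difference was -0.81 and -0.37.

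WNT4 in the GD100 controls measured 12.36, 12.24, 11.98, 11.78 and 11.64, and in the GD165 controls 11.16, 11.25, 11.48 and 11.65. The groups met at a single point, where the highest late control was level with the lowest early one. The within-slide differences were -0.73 and -0.49. Its limma adjusted p went above 0.05, up to 0.084, without GD100 control 1 or 2 or GD165 control 1 or 3. WNT2, a ligand known from lung and placental vessel development, went the other way. It measured 8.19, 8.27, 7.03, 8.62 and 7.60 in the GD100 controls and 7.95, 8.89, 8.68 and 9.23 in the GD165 controls, which overlapped, and its log2 difference of 0.75 had a 95% interval of -0.04 to 1.53. WNT2B, the closest relative of WNT2, differed by -0.52 (interval -1.05 to 0.01). Across the 10 ligands 4 differences were above 0 and 6 below, with a median of -0.10 beside 0.00 for all probes, and the median size was 0.14 beside 0.23.

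In BPA-exposed fetuses, the same age comparison used separate animals. None of the 10 ligands passed an adjusted p of 0.01, a threshold that 9.68% of all probes passed. There were 5 with an unadjusted p under 0.05, against 34.5% of all probes, and 3 had a limma adjusted p under 0.05, against 21% of all probes. These 3 were WNT11, 1.25-fold lower (log2 difference -0.32, SE 0.09, adjusted p = 0.0168), WNT6, 1.47-fold lower (-0.56, SE 0.17, adjusted p = 0.0271), and WNT2, 2.33-fold higher (1.22, SE 0.40, adjusted p = 0.0413). All 3 went above 0.05 when single arrays were left out. WNT11 did so without GD165 BPA 3 (limma adjusted p = 0.0908), WNT6 without GD165 BPA 3 or 4 or GD100 BPA 1 or 3 (up to 0.122), and WNT2 without GD165 BPA 4 or 5 or GD100 BPA 3, 4 or 5 (up to 0.197). In 4 ligands the groups did not overlap, against 27.2% of all probes: WNT2 was higher at GD165 (11.7% of probes) and WNT2B, WNT7B and WNT11 lower (15.4% of probes).

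WNT2B measured 11.40, 10.88, 10.77, 10.87 and 10.71 in the GD100 BPA-exposed uteri and 10.70, 10.16 and 9.79 in the GD165 BPA-exposed uteri. The lowest early uterus exceeded the highest late one by only the last digit printed, so this separation is narrow. WNT7B, a ligand of lung and kidney growth, measured 6.03, 6.10, 6.03, 6.29 and 5.74 early and 5.36, 5.56 and 5.65 late. Its log2 difference was -0.51 (interval -0.996 to -0.027, limma adjusted p = 0.124), but it was 0.0020 with slide as a fixed block and -0.09 on the 1 slide that held both ages. WNT4 differed here by 0.19 (interval -0.25 to 0.62), against -0.62 in controls. WNT5A differed by -0.27 (interval -0.57 to 0.03), an interval that holds its difference of -0.55 in controls. Whether the age difference itself depended on BPA is the interaction test given further on.

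**Figure D2:**
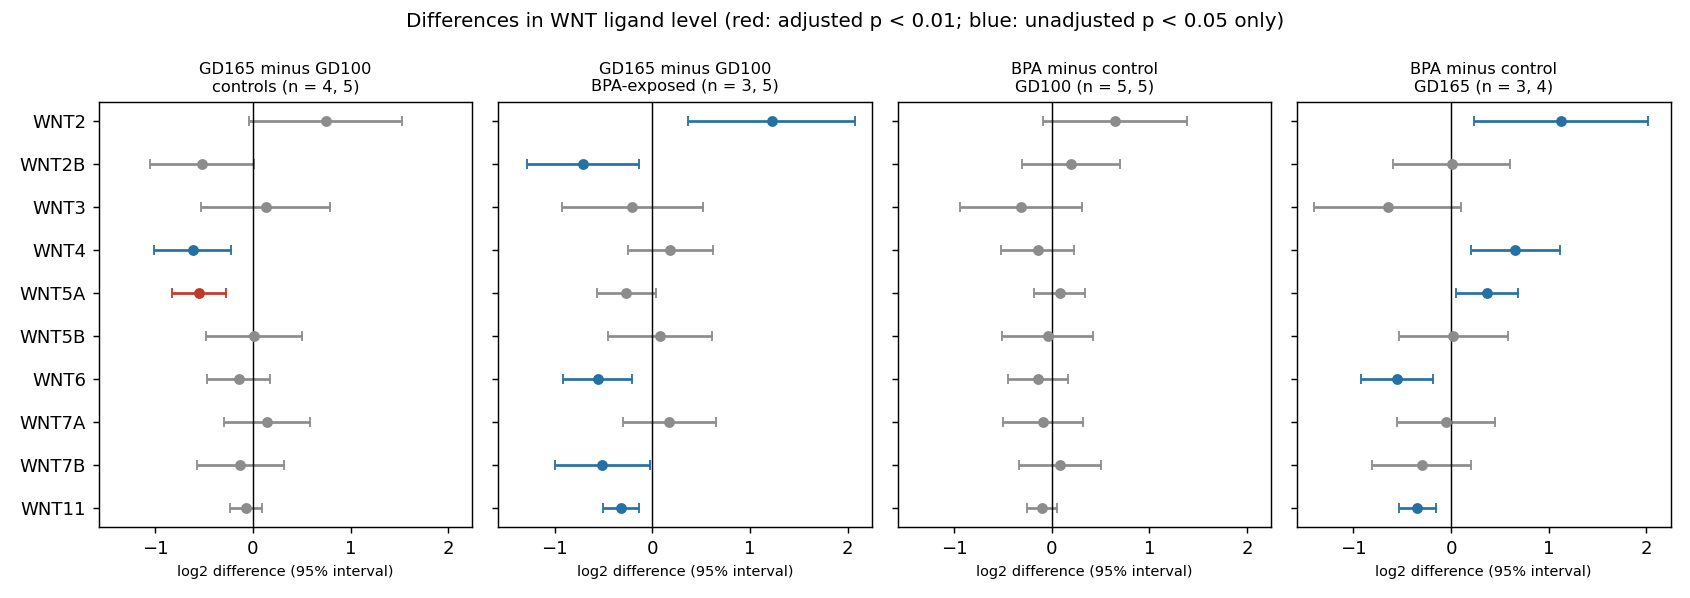
Log2 difference of each WNT ligand (horizontal axis, with 95% limma intervals) in the 4 comparisons, named above the panels with the number of fetuses in each group. WNT5A in controls is the single red point (-0.55, adjusted p under 0.01). At GD165 the BPA differences of WNT2, WNT4, WNT5A, WNT6 and WNT11 have intervals that leave out 0 but adjusted p-values of 0.386 and above.

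The comparison of BPA-exposed with control uteri at GD165 asks whether third-trimester exposure was accompanied by other WNT levels. No ligand passed an adjusted p of 0.01, and neither did any of the 20217 probes (0%), of which the lowest in adjusted p reached 0.118. With an unadjusted p under 0.05 there were 5 ligands of 10, against 8.61% of all probes: WNT2, WNT4 and WNT5A were higher in BPA-exposed uteri, and WNT6 and WNT11 lower. In 4 of these the groups did not overlap, against 7.31% of all probes: WNT2, WNT4 and WNT5A were higher (2.07% of probes) and WNT11 lower (5.24% of probes). The median size of the difference over the 10 ligands was 0.36, beside 0.14 for all probes. The 10 genes were chosen with earlier results of these data known, so these counts describe the ligands and test nothing about them as a set.

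WNT4, the ligand of Müllerian duct formation, measured 12.16, 11.80 and 12.17 in the 3 BPA-exposed uteri, against 11.16, 11.25, 11.48 and 11.65 in the 4 controls. Every exposed uterus was above every control. The difference of 0.66 (SE 0.21, interval 0.21 to 1.11), or 1.58-fold, had an unadjusted p of 0.0072 in limma and an adjusted p of 0.455. By a two-sided exact permutation test p was 0.0286, the smallest that the 35 regroupings of 3 and 4 animals allow. The exposed GD165 mean of 12.04 was close to both GD100 means (12.00 in controls, 11.86 in BPA-exposed), while the GD165 control mean was 11.38.

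WNT5A measured 13.94, 13.84 and 14.11 in the exposed uteri and 13.52, 13.69, 13.73 and 13.45 in the controls. Here too the groups did not overlap, with a gap smaller than that between some controls. It was 1.29-fold higher with BPA (log2 difference 0.37, SE 0.15, unadjusted p = 0.025 and adjusted p = 0.528 in limma), and the exact permutation p was again 0.0286. WNT5B, its close relative, measured 12.05, 11.71 and 11.37 against 11.42, 11.76, 11.90 and 11.66. These groups overlapped throughout, and the difference of 0.02 had an interval of -0.54 to 0.58, which does not exclude a change as large as that of WNT5A.

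WNT2 gave the largest difference of the 10. It measured 9.27, 9.55 and 10.63 in the exposed uteri against 7.95, 8.89, 8.68 and 9.23 in the controls. The lowest exposed uterus was only just above the highest control, and exposed uterus 5 stood highest. WNT2 was 2.18-fold higher (log2 difference 1.13, SE 0.42, interval 0.24 to 2.02, limma adjusted p = 0.503), the exact permutation p was 0.0571, and leaving out any 1 array kept the difference between 0.72 (without exposed uterus 5) and 1.40.

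WNT11, a ligand of cell polarity and of ureteric branching, had the tightest spread of the 10 probes. It measured 11.93, 12.15 and 12.22 in the exposed uteri and 12.47, 12.57, 12.40 and 12.34 in the controls, so that all exposed uteri were lower. At 1.27-fold lower (log2 difference -0.35, SE 0.09), it had the smallest unadjusted p of the 10 (0.0015 in limma, adjusted p = 0.386). WNT6, a ligand of epithelial tubule formation in the kidney, measured 10.22, 10.38 and 10.77 against 10.62, 11.12, 11.23 and 11.07. One exposed uterus lay above 1 control, and WNT6 was 1.47-fold lower (log2 difference -0.55, SE 0.17, limma adjusted p = 0.441).

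The other 4 ligands differed by less or varied more. WNT3, known from gastrulation and limb outgrowth, measured 9.75, 9.80 and 10.82 in the exposed uteri and 11.30, 10.71, 10.78 and 10.29 in the controls. Exposed uteri 3 and 4 were below every control and uterus 5 above 3 of them. Its difference was -0.65 (interval -1.40 to 0.10), and -0.997 without exposed uterus 5. WNT7A, the epithelial ligand of tract patterning, measured 13.99, 13.81 and 14.07 against 13.55, 14.31, 14.64 and 13.54, with the controls on both sides of the exposed uteri, and differed by -0.05 (interval -0.55 to 0.45). WNT7B differed by -0.30 (interval -0.81 to 0.21), from -0.56 without GD165 control 1 to -0.17 without GD165 control 5, and by 0.17 with slide as a fixed block. WNT2B differed by 0.01 (interval -0.60 to 0.61).

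One slide held 2 exposed GD165 uteri and 1 GD165 control. Within it WNT2 differed by 1.46, WNT4 by 0.82, WNT5A by 0.37, WNT6 by -0.32 and WNT11 by -0.43, each on the same side as over all slides. These arrays are part of the pooled values, so the shared direction is no separate check. The control on this slide, GD165 control 1, was the lowest GD165 control in WNT2 (7.95), WNT4 (11.16) and WNT6 (10.62), but not in WNT5A or WNT11. WNT3 differed by -1.53 there. WNT7A (0.35) and WNT7B (0.42) lay on the opposite side from their pooled values.

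At GD100, exposure over the second trimester left no ligand past the threshold. None of the 10 had an unadjusted p under 0.05 (3.79% of all probes did), none had groups that did not overlap (0.782% of all probes), and 0% of probes passed an adjusted p of 0.01. WNT2 had the largest difference, 0.65 (SE 0.35, interval -0.08 to 1.39). It measured 9.06, 9.0, 8.12, 8.05 and 8.74 in the exposed uteri against 8.19, 8.27, 7.03, 8.62 and 7.60 in the controls, and the groups overlapped. WNT4 differed by -0.14 (interval -0.52 to 0.23), WNT5A by 0.08 (interval -0.18 to 0.34) and WNT11 by -0.10 (interval -0.26 to 0.06). The median size over the 10 ligands was 0.12, beside 0.10 for all probes.

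The BPA difference at GD165 was then set against that at GD100 as an interaction term, which also tests whether the age difference depended on exposure. No ligand and no probe (0%) passed an adjusted p of 0.01. There were 2 ligands with an unadjusted p under 0.05, against 7.83% of all probes. For WNT4 the BPA difference was larger at GD165 by 0.80 (SE 0.28, interval 0.22 to 1.39, limma adjusted p = 0.529), and for WNT11 it was lower by a log2 value of -0.25 (SE 0.12, interval -0.50 to -0.0016, limma adjusted p = 0.634). For WNT5A it was larger by 0.28 (interval -0.12 to 0.69), so the data do not show that its lower level with age was particular to controls.

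The number of ligands called differed with the error that the differences were measured against. The scanner software attaches an error to each spot from its own noise model, and the study weighted its analysis of variance by such errors. The test given next uses that error alone and is not the study's test. When the BPA difference at GD165 was tested against that error alone, with no spread between fetuses, 7 of the 10 ligands passed an adjusted p of 0.01 (WNT2, WNT3, WNT4, WNT5A, WNT6, WNT7B and WNT11), against 23.9% of all probes. By the same test 2 ligands passed with BPA at GD100 (WNT2 and WNT3, 16.6% of probes), 5 in the interaction (23.1% of probes), 4 with age in controls (47.8% of probes) and 6 with age in BPA-exposed uteri (50.8% of probes). The standard error by that model was 0.078 for WNT4 and 0.078 for WNT2, whereas the spread between fetuses gave 0.21 and 0.42. The ratio of the 2 standard errors was lowest for WNT11 (1.14) and highest for WNT2 (5.35). In the other 27 alternative fits, all of which counted the spread between fetuses, none of the 10 ligands was called with BPA at GD165. These included the limma fit weighted by the scanner's errors, in which 0 of 20217 probes were called. In its own error-weighted array analysis, at a corrected p under 0.01, the study listed WNT2, WNT4 and WNT5A as altered with BPA at GD165, each higher. That analysis was not repeated here. The study also measured WNT2 and WNT4 at GD165 by real-time RT-PCR and reported both higher with BPA.

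**Figure D3:**
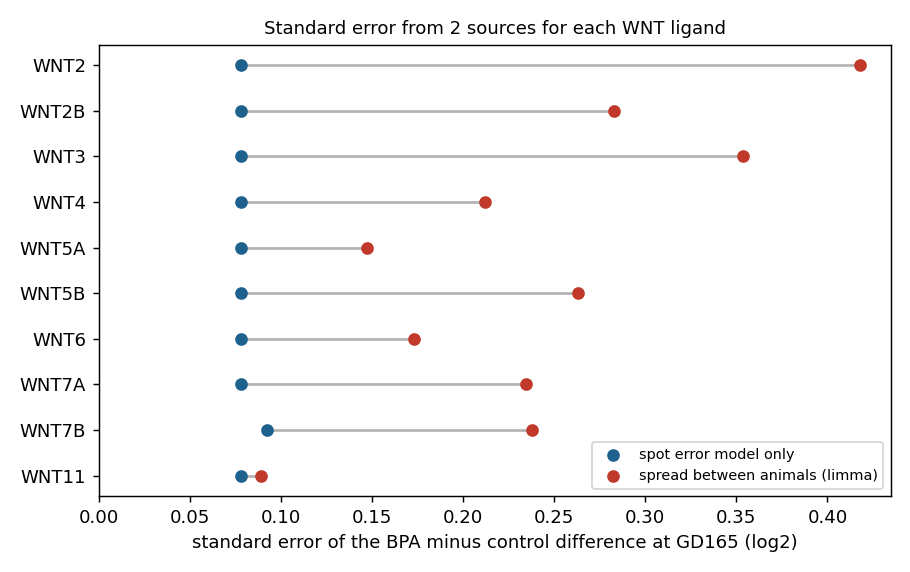
Standard error of the BPA minus control difference at GD165 (horizontal axis, log2 units) for each WNT ligand, from the spot error model alone (blue) and from the spread between fetuses in limma (red). The red point lies to the right for every ligand, from 1.14 times for WNT11 to 5.35 times for WNT2.

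The rest of the pathway was read from a list of 66 genes, of which 55 were named on the array. With age in controls 5 were called higher and 3 lower, and in BPA-exposed uteri 4 higher and 3 lower, beside the 11.5% and 9.68% of all probes called in these comparisons, so that the counts were near the background. Called higher in both were the secreted ligand-binding antagonists WIF1 (5.08-fold in controls, 4.05-fold in BPA-exposed), SFRP4 (3.13-fold and 4.24-fold) and FRZB (1.81-fold and 2.31-fold), and the receptor FZD6 (2.13-fold and 1.88-fold). Called lower in both were DKK2, a ligand of the LRP co-receptors (2.41-fold and 2.39-fold), and the receptors FZD2 (1.84-fold and 1.68-fold) and FZD9 (1.58-fold and 1.60-fold). NKD2, a Dishevelled-binding feedback gene, was called higher in controls alone (1.82-fold, limma adjusted p = 0.0069), and the difference between the groups was not called. None of the 55 was called with BPA at either age, and at GD165 1 of them had an unadjusted p under 0.05, the receptor FZD3, whose probe missed the background criterion on each of the 17 arrays.

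**Figure D4:**
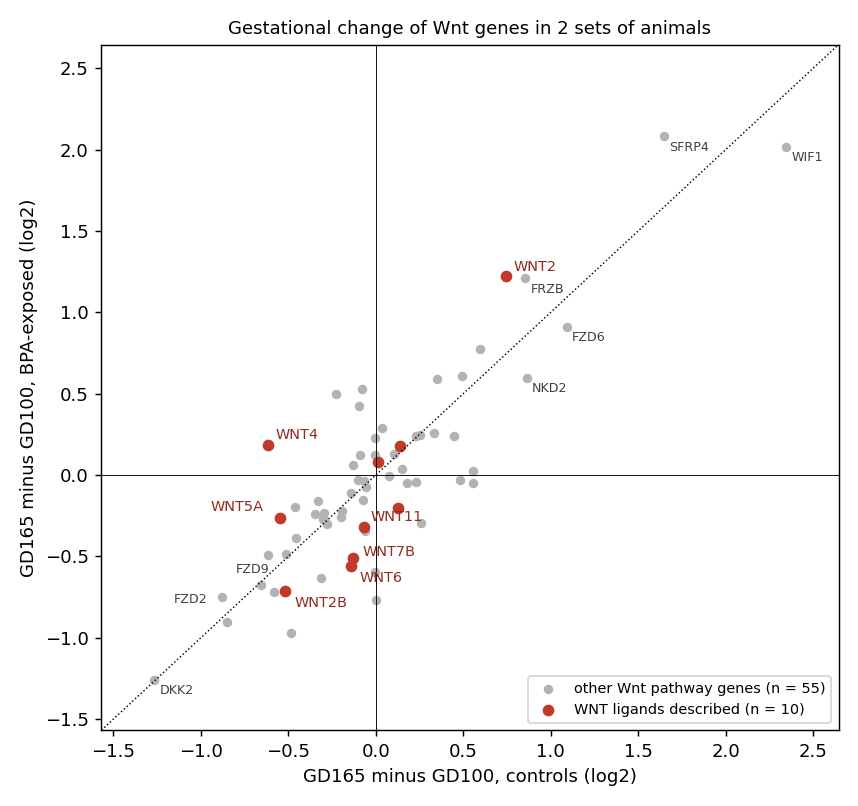
Log2 difference between GD165 and GD100 in controls (horizontal axis) and in BPA-exposed uteri (vertical axis) for the 10 WNT ligands (red) and 55 other Wnt pathway genes (grey), with the line of equality dotted. WIF1, SFRP4 and DKK2 lie farther from 0 than any of the 10 ligands in controls, and WNT4 lies at -0.62 in controls and 0.19 in BPA-exposed uteri.

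By layer of the pathway, 3 of 10 secreted modulators were called higher and 1 lower with age in controls, and of 14 receptors 1 was called higher and 2 lower. Of all probes 11.5% were called in this comparison (1277 of 20217 higher, and 5.2% lower). None of the 11 intracellular genes, which hold the Dishevelled, beta-catenin destruction complex and TCF genes, was called in either age comparison. The 9 further WNT ligands had none called in any comparison. Of these 9, 3 were well above background on all 17 arrays (WNT3A, WNT10A and WNT10B), 4 on some and 2 on none (WNT1 and WNT16). Among the 7 feedback targets, 6 were above 0 with BPA at GD165, with a median log2 difference of 0.12 beside -0.02 for all probes. At GD100 5 of the 7 were above 0 with BPA, with a larger median of 0.20 beside 0.01 for all probes. None passed the threshold at either age, so the rise was not particular to GD165.

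Each sample was a mixture of uterine tissues, in which fewer cells of a type and less RNA per cell cannot be told apart. Marker lists of cell types are given beside the age differences, where 11.5% of all probes were called in controls and 9.68% in BPA-exposed uteri. In controls 6 of 9 simple epithelium markers were called higher, and their summed signal was 132353 to 192744 at GD100 and 259451 to 320309 at GD165. In BPA-exposed uteri 4 of 9 were, with 119550 to 174245 and 200106 to 269904. Leukocyte markers were called higher in 2 of 8 in controls (30836 to 46505 against 84278 to 116388) and 2 of 8 in BPA-exposed uteri (26444 to 43035 against 67582 to 159191). Endothelium had 1 of 7 called higher in controls and 2 of 7 in BPA-exposed uteri, smooth muscle 2 of 9 and 1 of 9, and skeletal muscle 4 of 8 and 1 of 8. The erythroid list had 1 of 4 called higher in each, with a summed signal of 4163 to 14715 at GD100 and 220047 to 619522 at GD165 in controls, and 8619 to 44443 and 183009 to 468104 in BPA-exposed uteri. Stroma had 1 of 6 called lower in controls and 0 in BPA-exposed uteri. The uterus and Müllerian list had 1 of 6 called higher and 2 lower in controls, and 1 higher in BPA-exposed uteri. No squamous epithelium or mesothelium marker was called in either. With BPA at GD165, 8 of 9 simple epithelium markers were below 0 (median -0.42, summed signal 200106 to 269904 against 259451 to 320309), and 10 of 11 squamous epithelium markers were (median -1.12, 11985 to 15666 against 12348 to 122542), with none called. The top of the squamous control range was GD165 control 6 alone. The other GD165 controls summed to 12348, 25441 and 32901, the lowest of which lay within the exposed range. Of the 6 uterus and Müllerian markers, 6 were above 0 (median 0.18, summed signal 102735 to 113125 against 82405 to 98704), again with none called. Skeletal muscle markers were below 0 with BPA at GD165 in 7 of 8 (0 called), with a summed signal of 14501 to 78914 in exposed and 16545 to 161431 in control uteri. Smooth muscle markers were below 0 in 8 of 9 (median -0.19, 0 called). In the remaining lists, 4 of 6 stroma, 5 of 7 endothelium, 4 of 8 leukocyte, 1 of 4 erythroid and 2 of 2 mesothelium markers were above 0, with 0 called. The median over all probes was -0.02. The part of these cell type markers in the WNT differences was not tested.

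Among the fetuses of a group, ligands also varied together. As a description over 17 arrays, after the group means were taken off, WNT2B and WNT5B had the highest correlation of the 45 pairs (r = 0.77), followed by WNT2 with WNT6 (0.67), and WNT2B with WNT3 the lowest (-0.68). Arrays share their scaling and slides, so these values carry no test. For each ligand the named genes with the most similar level over the 17 arrays were sought among 13391 candidates. The closest to WNT5A was KIAA0470 (r = 0.94, and 0.92 with group means taken off), to WNT6 FLJ25471 (0.93 and 0.87), to WNT2B KIAA1727 (0.92 and 0.90), and to WNT11 SLC26A7 (0.90 and 0.88) and then FGF10 (0.87 and 0.49). WNT7A was closest to COL9A2 (0.83 and 0.87), WNT2 to DKFZp761D221 (0.85 and 0.69) and WNT4 to B3GAT2 (0.78 and 0.56). Names are those of the array's design.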

How the data were processed

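Per the labels and the study's methods, RNA from single fetal uteri was hybridised to 1-colour Agilent rhesus arrays and read with Agilent Feature Extraction 9.5. The deposited values used here are the processed signal intensity per spot, background-corrected by that software. The deposited series table holds the same values (711467 of 711467 compared were equal). Spots flagged as outliers were left out, the spots of a probe averaged (2 per probe), log2 taken, and each array scaled to its 75th percentile. Differences were tested with limma 3.58.1 in R 4.3.3 on 17 arrays and 4 groups, over 20217 probes, with Benjamini-Hochberg adjustment and a threshold of 0.01. Of the probes, 86.0% carried a gene name, taken from the probe descriptions and, for older symbols and accessions, the RefSeq gene table. Tables were made in Python 3.11.15 with pandas 2.3.3, numpy 2.4.6 and scipy 1.17.1. The fits were also run on simulated arrays with 200 of 20217 probes changed. For BPA at GD165, the threshold of 0.01 recovered 3% of 1.5-fold, 50.5% of 2-fold and 87% of 4-fold changes. A ligand not called at GD165 may therefore still differ by such smaller folds.

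The named genes were all 10 WNT ligands, each by its brightest probe, the listed pathway genes past the threshold, and the 3 most correlated genes per ligand, of which the closest for 7 ligands are given. The members and lists were chosen with earlier results of these data known. Alternatives were normexp background correction (offset 50), median and quantile scaling, a filter on dim probes (17516 left), outlier spots kept, the compared groups alone, slide or replicate number as a block, error-model weights, the error model alone, a threshold of 0.05 and each array left out. With arrays, the number of fetuses limits the precision. Probe sequences and human positions are those of the scanner files, whose human build is not given in the sources used here.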

Additional observations from a re-analysis of the deposited data

Results flagged for a closer look

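WNT2B in GD100 BPA-exposed uterus 1 stood apart from its group: it measured 11.40, while the next highest of the 5 was 10.88 and the lowest 10.71, a gap of 0.75 of the group's range. Of 30 groups of 4 or 5 fetuses examined, 1 was picked out this way, and chance alone picks out about 1 in 20.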

How the results depend on the processing

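The differences of WNT2, WNT4, WNT5A, WNT6 and WNT11 with BPA at GD165 kept their direction under every alternative run, and none passed an adjusted p of 0.01 except when the scanner's error model stood in for the spread between fetuses. That error model alone called 7 ligands with BPA at GD165 (23.9% of all probes), 2 with BPA at GD100 (16.6%) and 5 in the interaction (23.1%). With age it called 4 in controls (47.8% of all probes) and 6 in BPA-exposed uteri (50.8%). In controls the count with age went from 1 to 0 with the compared groups alone, with replicate number as a block and with slide as a fixed block, where the limma adjusted p of WNT5A was 0.0225, 0.0653 and 0.0283, and it was 0 to 1 as each array was left out. At a threshold of 0.05 it was 2, against 21.2% of all probes. With age in BPA-exposed uteri the count of 0 went to 3 at a threshold of 0.05, against 21% of all probes. At 0.01 it went to 1 with error-model weights (WNT11, limma adjusted p = 0.0087), where 2093 of 20217 probes were called. The fixed slide block leaves GD165 control 5, alone on its slide, without weight, as the replicate block does GD165 control 6.

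Replicate numbers did not pair the fetuses. Over 19 pairs of arrays with the same number, deviations from the group means correlated at -0.17 to 0.16 and were over 0.1 in 3, so the replicate block is no paired test. It called 0 ligands in each of the 5 comparisons. The consensus correlation within slides was 0.107. Each ligand has 1 probe, so averaging over probes gives the same values.

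Directions turned in 46 refitted values, all of differences that had not been called, against 1309 that kept direction and call. With age in controls WNT5B turned to -0.036 under median scaling, -0.013 under quantile normalization and -0.045 under the slide block, where WNT11 turned to 0.023. Under the slide block WNT7B turned from -0.51 to 0.0020 with age in BPA-exposed uteri, from -0.30 to 0.17 with BPA at GD165, from -0.38 to 0.30 in the interaction and to -0.13 with BPA at GD100, WNT5A to -0.0090 with BPA at GD100, WNT7A to 0.065 with BPA at GD165 and WNT2B to 0.099 in the interaction. With BPA at GD100 WNT7B turned to -0.0065 under quantile normalization. With BPA at GD165 WNT2B turned to -0.012 under normexp and WNT5B to -0.012 under the replicate block, and in the interaction WNT7A to -0.24 under the replicate block. The cause was not tested. With each array left out, the ranges that crossed 0 were these. With age in controls they were WNT3 -0.063 to 0.29, WNT5B -0.20 to 0.16, WNT7A -0.069 to 0.30 and WNT7B -0.26 to 0.13, and with age in BPA-exposed uteri WNT5B -0.088 to 0.25. With BPA at GD100 they were WNT5B -0.26 to 0.10, WNT7A -0.16 to 0.0043 and WNT7B -0.025 to 0.16. With BPA at GD165 they were WNT2B -0.24 to 0.22, WNT5B -0.15 to 0.19 and WNT7A -0.21 to 0.16. In the interaction they were WNT2B -0.44 to 0.024, WNT5B -0.10 to 0.28 and WNT7A -0.12 to 0.25.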
